A study of Mus musculus with 8 samples.

Results

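Metallothioneins and the genes that set zinc traffic were followed across 8 RNA-seq libraries of mouse fibroblasts. The set holds 10 genes chosen by symbol, out of 54838 gene rows in the deposited tables: the metallothionein genes Mt1 and Mt2, the metal-sensing transcription factor gene Mtf1, the zinc exporter genes Slc30a1 and Slc30a4, and the zinc importer genes Slc39a1, Slc39a6, Slc39a8, Slc39a10 and Slc39a14. All 10 were found and all 10 passed the filter on low counts in each comparison. Metallothioneins are small cysteine-rich proteins that bind zinc, copper and cadmium and buffer free zinc in the cell. MTF1 senses free zinc and binds metal response elements in the promoters of metallothionein genes and of Slc30a1. Proteins of the SLC30 family carry zinc out of the cytosol, into vesicles or out of the cell, and those of the SLC39 family carry it into the cytosol.

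The cells were mouse embryonic fibroblasts, grown in DMEM with serum under low oxygen. Strain, embryo number and whether replicates were separate cultures are not given in the labels, so the p-values rest on a spread between samples that may be technical. Proliferating cells (2 libraries) were compared with cells made senescent through nutlin3a (n-Sen, 2 libraries), which frees p53 from MDM2. For n-Sen, RO3306, an inhibitor of CDK1, arrested the cells in G2; nutlin3a was added to it and then used alone for 48 h. BI-2536, an inhibitor of PLK1, followed at 100 nM over 14 days to remove cells still dividing, so senescence cannot be told apart from these agents and from time in culture. In the other pair of groups (2 libraries each), cells made senescent in this way were kept for 24 h in HEPES-buffered, pH-adjusted medium, either the control medium or the alkaline one. The labels give no pH values.

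Total counts ran from 40608517 to 54183060 a library. Replicates were distinct libraries: their counts varied beyond Poisson sampling (chi-square over its degrees of freedom, 4.63 to 7.39). The 12 fibroblast markers were detected in every library, and their sum was between 11964 and 12252 CPM in proliferating libraries and between 18331 and 18487 CPM in n-Sen, where 10 were higher and 2 lower. With control medium it was between 16843 and 18158 CPM and with alkaline medium between 19285 and 19381 CPM. There 3 were higher and 7 lower than with control medium (median log2 fold change -0.16). Col1a1, the largest part of the sum in both media, had a mean of 6069 CPM with control medium and 8176 CPM with alkaline medium. Over all genes tested, 34.0% were called higher and 33.1% lower in n-Sen, and 9.58% and 10.4% in alkaline against control medium. Of the 19 macrophage markers tested, 19 were higher in n-Sen than in proliferating cells (median log2 fold change 4.27), and the summed level of the 20 listed markers was between 58.1 and 66.0 CPM in proliferating libraries and between 1284 and 1364 CPM in n-Sen. That sum was between 1253 and 1325 CPM under control medium and between 1153 and 1161 CPM under alkaline medium. Among these markers Lyz2 was the largest part of the sum in n-Sen (mean 731 CPM), and Cd163 was at 0 in 5 of the 8 libraries. The summed endothelial markers were between 31.4 and 37.5 CPM in proliferating libraries and between 8.44 and 9.58 CPM in n-Sen. The epithelial ones were between 79.4 and 86.7 CPM and between 9.00 and 9.29 CPM. Of 6 tested endothelial markers 1 was higher and 3 lower in n-Sen, and of 7 tested epithelial markers 1 was higher and 4 lower. From control to alkaline medium the endothelial sum went from between 8.59 and 9.17 CPM to between 9.82 and 11.2 CPM, with 1 of 7 tested markers higher and the others not called. The epithelial sum went from at most 11.3 CPM to at least 16.3 CPM. Cldn4, a claudin gene, was the 1 marker called higher: it stood at 1.11 and 0.824 CPM under control medium and at 6.27 and 7.39 CPM under alkaline medium, and the other 5 tested markers were not called (list median -0.035). Without Cldn4 the epithelial sum was 10.2 and 10.1 CPM under control medium and 10.4 and 8.87 CPM under alkaline medium, so the groups overlapped. Of their defining markers Cldn5 was at 0 in 8 libraries, Tie1 in 7, and Epcam and Krt5 in 6. The part that other cell types had in the levels below was not tested. In bulk RNA, fewer cells of a type and less RNA per cell cannot be told apart.

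Mt1 and Mt2 lie next to each other on chromosome 8 of mm10, on the plus strand, Mt2 from 94172664 to 94173568 and Mt1 from 94179082 to 94180327. Their coding sequences from GENCODE vM21 are shown without the stop codon, with the cysteine codons in capitals, because those cysteines are the metal ligands. The pair also shows how far reads of one gene could be taken for the other.
Mt1: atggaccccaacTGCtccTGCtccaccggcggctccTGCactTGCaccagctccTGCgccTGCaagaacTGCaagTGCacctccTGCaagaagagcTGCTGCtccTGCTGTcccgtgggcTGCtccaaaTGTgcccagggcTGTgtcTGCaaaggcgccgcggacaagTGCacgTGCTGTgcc
Mt2: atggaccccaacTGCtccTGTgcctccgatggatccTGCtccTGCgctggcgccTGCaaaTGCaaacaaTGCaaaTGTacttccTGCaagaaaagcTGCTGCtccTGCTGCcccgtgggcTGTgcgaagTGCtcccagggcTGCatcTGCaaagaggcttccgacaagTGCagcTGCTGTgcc
Each has 61 codons, of which 20 encode cysteine, and all 20 stand at the same codon positions in both. Of 183 bases, 145 (79.2%) were identical.

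The 250 bases before the RefSeq start (GRCm38.p6) are shown for the metallothionein genes and for Slc30a1, the exporter gene known as an MTF1 target, with matches to the core of the metal response element in capitals. The core was searched on both strands as TGCACNC or TGCGCNC, and a match on the minus strand is printed as its complement on the plus strand.
Mt1, chr8:94178839-94179088, plus strand: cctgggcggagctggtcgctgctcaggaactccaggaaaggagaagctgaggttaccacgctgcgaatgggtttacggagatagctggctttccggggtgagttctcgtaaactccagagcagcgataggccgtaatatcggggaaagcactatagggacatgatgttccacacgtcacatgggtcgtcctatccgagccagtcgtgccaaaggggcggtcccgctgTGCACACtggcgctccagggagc
Mt2, chr8:94172368-94172617, plus strand: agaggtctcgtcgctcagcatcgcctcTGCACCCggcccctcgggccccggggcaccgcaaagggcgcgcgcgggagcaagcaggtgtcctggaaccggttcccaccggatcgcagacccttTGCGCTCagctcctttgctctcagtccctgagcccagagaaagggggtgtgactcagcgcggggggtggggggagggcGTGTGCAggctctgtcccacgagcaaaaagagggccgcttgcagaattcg
Slc30a1, chr1:191906531-191906780, plus strand: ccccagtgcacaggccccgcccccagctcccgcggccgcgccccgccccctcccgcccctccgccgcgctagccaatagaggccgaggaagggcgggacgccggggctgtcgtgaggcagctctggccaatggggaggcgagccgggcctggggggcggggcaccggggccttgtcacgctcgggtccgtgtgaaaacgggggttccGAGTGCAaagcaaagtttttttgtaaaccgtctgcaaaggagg

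The table held windows for 8 of the 10 genes, 10 windows in all; Slc39a6 and Slc39a14 were the other two. The Mt2 window held 3 matches, the Slc30a4 window 2, and those of Mt1 and Slc30a1 held 1 each. Of 32851 windows of this length in the table, 21.4% held at least 1 match, 5.17% at least 2 and 1.26% at least 3. One of 2 Slc39a8 windows held 1 match, and the windows of Mtf1, Slc39a1 and Slc39a10 held none of these letters. The core of the antioxidant response element, searched on both strands as TGACNNNGC, stood once in the windows of Mt2, Slc30a1 and Slc39a1 and in 1 Slc39a8 window, against 10.2% of all windows with at least 1 match. The annotated starts lie upstream of the TATA box: the letters TATAAA begin at base 129 of the main annotated transcript of Mt1 and at base 90 of that of Mt2. The stretch from the first base of that GENCODE transcript to TATAAA, not printed here, held 4 further matches to the metal response core in Mt1 and 3 in Mt2. For Mt2 that transcript starts at 94172664, after the end of the printed window at 94172617. The bases between are in neither count. These are matches of letters, not measured binding sites.

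**Figure D1:**
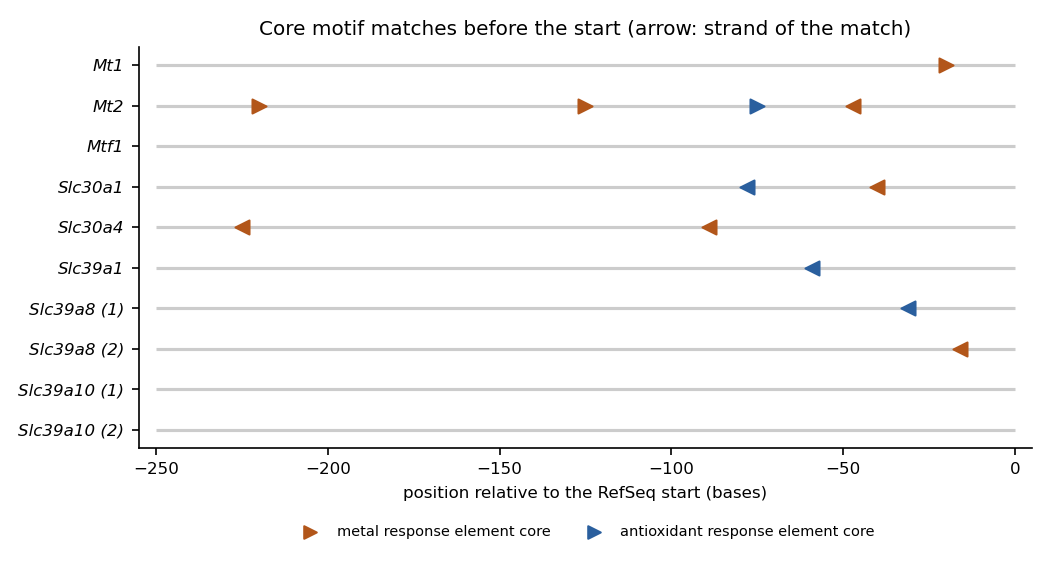
Positions of core motif matches (arrows, pointing right for the plus strand of the gene and left for the minus strand) in the 250 bases before each RefSeq start; the horizontal axis is the distance from the start in bases, and genes with 2 annotated starts have 2 lines. The Mt2 window held 3 metal response cores and 1 antioxidant core, and that of Mt1 held 1 metal response core.

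The deposited count of Mt2 could not be separated from that of Gm45774, an antisense gene on the minus strand (chromosome 8, 94170748 to 94173412) that covers 432 of the 588 exonic bases of Mt2. Gm45774 was listed at between 98.9% and 100.2% of the Mt2 count in the 8 libraries, and the pair differed by at most 10 counts. The Mt2 value was fractional in 5 of 8 libraries, while the sum of the pair was a whole number in 6 of 8. The deposited Mt2 level is thus close to that sum divided equally, and whether counting used the strand is not given, so reads of Mt2 and Gm45774 cannot be told apart. The other genes of the set of 10 with an antisense neighbour over their exons were Mtf1 (1110065P20Rik, listed at 59.2% to 73.2% of the Mtf1 count), Slc30a1 (1700034H15Rik, 6.46% to 10.9%) and Slc30a4 (4930417H01Rik, 1.82% to 3.91%). These percentages compare the whole counts of each pair. The reads shared over the overlapping exons were not measured, so how far the levels of these genes are uncertain is not known.

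**Figure D2:**
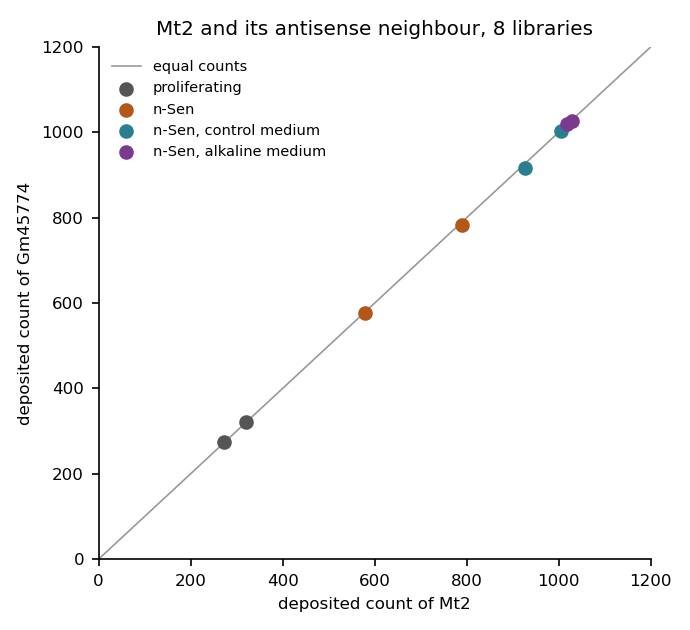
Deposited count of Mt2 (horizontal axis) against that of its antisense neighbour Gm45774 (vertical axis), 1 point a library, coloured by group, with the line of equal counts. All 8 points lie within 10 counts of the line.

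The metallothionein genes were higher in n-Sen than in proliferating cells and higher again in alkaline than in control medium. Levels below are CPM, the count of a gene relative to its library's TMM-scaled total. Mt1 stood at 50.2 and 42.4 CPM in the proliferating libraries, 57.3 and 66.1 in n-Sen, 70.7 and 71.0 with control medium, and 94.0 and 93.1 with alkaline medium. The groups followed each other in that order without overlap, from a mean of 46.3 ± 5.52 CPM (SD, n = 2) to 93.5 ± 0.585. Mt2 stood at 7.70 and 5.45 CPM in proliferating cells, 12.4 and 14.6 in n-Sen, 19.0 and 20.2 under control medium, and 25.5 and 23.1 under alkaline medium. The order was the same, again without overlap. The spread within the Mt1 pairs was wider in proliferating cells and n-Sen than in the media (SD 6.24 CPM in n-Sen against 0.199 in control medium).

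For n-Sen against proliferating cells, the log2 fold change was 0.42 ± 0.086 (SE) for Mt1 and 1.05 ± 0.15 for Mt2 (adjusted p = 0.000337 and 1.09e-05; edgeR, quasi-likelihood, Benjamini-Hochberg over all genes tested). For alkaline against control medium it was 0.39 ± 0.053 for Mt1 and 0.30 ± 0.089 for Mt2 (adjusted p = 6.11e-06 and 0.0171, edgeR). Control medium against untreated n-Sen gave 0.53 ± 0.12 for Mt2 (adjusted p = 0.00629) and 0.20 ± 0.074 for Mt1 (adjusted p = 0.0980, edgeR), so Mt1 did not pass there. That Mt1 value rested on the n-Sen libraries: it was 0.10 without replicate 1 (adjusted p = 0.639) and 0.30 without replicate 2 (0.0424, edgeR). It also passed with no filter on low counts (0.0357) and with only the 4 libraries compared in the fit (0.0390). These groups come from different tables and differ by the 24 h in buffered medium, and the alkaline and untreated cells are each set against the same control-medium libraries. Counts of Mt2 summed with Gm45774 gave levels of 13.1 ± 3.19 CPM in proliferating cells, 27.0 ± 3.06 in n-Sen, 39.1 ± 1.82 in control medium and 48.6 ± 3.24 in alkaline medium (n = 2 each), with log2 fold changes of 1.05, 0.53 and 0.31 for the 3 comparisons in the order n-Sen, control medium, alkaline medium. The ratio of Mt1 to Mt2 as deposited was 7.15 ± 0.889 in proliferating cells, 4.57 ± 0.0686 in n-Sen, 3.62 ± 0.145 in control medium and 3.86 ± 0.240 in alkaline medium (n = 2 each). A ratio of Mt1 to the summed count would be lower in every group, so the size of the ratio depends on how the shared reads are assigned.

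The alkaline call of Mt2 rested on single libraries. It did not pass without replicate 1 of the alkaline group (log2 fold change 0.23, adjusted p = 0.170) or of the control-medium group (0.26, adjusted p = 0.0986), nor in DESeq2 (adjusted p = 0.0622) or with all 8 libraries in the edgeR fit (0.0904). Over 10 alternatives the Mt1 value for alkaline medium lay between 0.39 and 0.40, with adjusted p of at most 0.000419 (edgeR and DESeq2). The rise of Mt2 in control medium was not called without n-Sen replicate 1 (0.42, adjusted p = 0.127) or control-medium replicate 2 (0.49, adjusted p = 0.0673, edgeR).

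**Figure D3:**
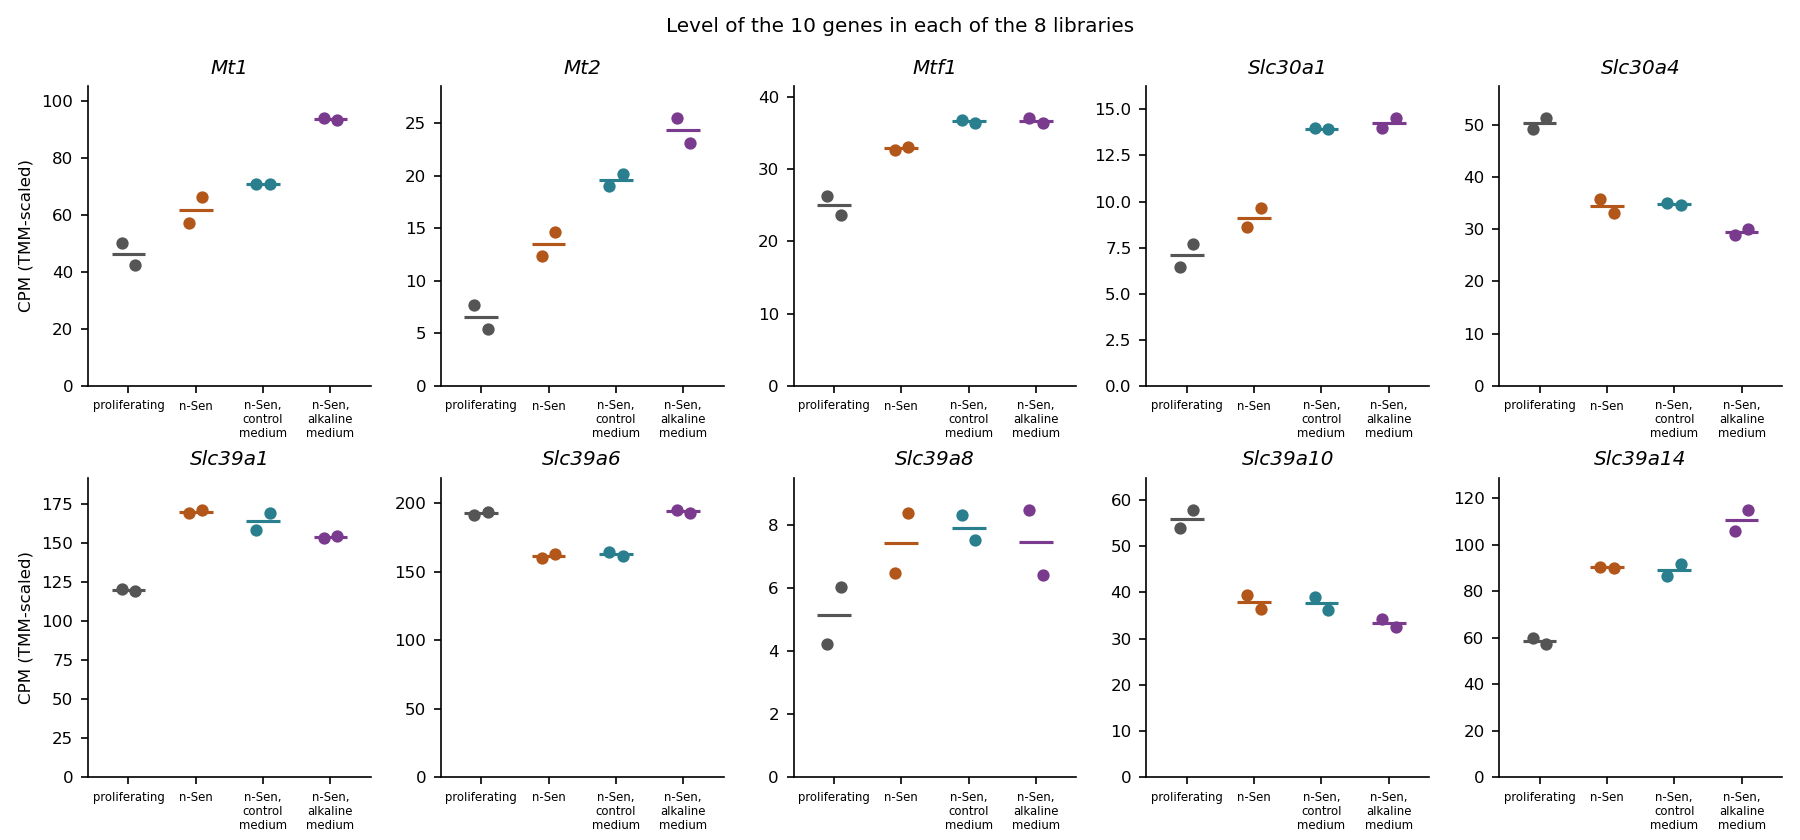
Level of each of the 10 genes (vertical axes, CPM on TMM-scaled library sizes, starting at 0) in the 2 libraries of each of the 4 groups (points), with the group mean as a line. Mt1 and Mt2 step upward over the 4 groups, Slc30a4 and Slc39a10 are highest in proliferating cells, and Slc39a6 is near 193 CPM in proliferating cells and in alkaline medium and near 162 CPM in the other groups.

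Mtf1 (chromosome 4, 124802104 to 124849800), the zinc-sensing factor itself, was higher in n-Sen than in proliferating cells, at 32.7 and 33.0 against 26.3 and 23.7 CPM (log2 fold change 0.40 ± 0.084, adjusted p = 0.000462, edgeR). Its libraries stood at 36.7 and 36.4 CPM under control medium and at 37.0 and 36.3 CPM under alkaline medium, and these groups overlapped. The difference between the media was -0.0034 ± 0.069 (adjusted p = 0.984, edgeR), while Mt1 and Mt2 differed between the same libraries. These are RNA levels, and whether the activity of MTF1 differed between the media was not tested.

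The exporter genes went in opposite directions in senescence. Slc30a1 (chromosome 1, 191906767 to 191913247) encodes the exporter of the plasma membrane. It stood at 6.43 and 7.72 CPM in proliferating libraries, 8.62 and 9.63 in n-Sen, 14.0 and 13.9 under control medium, and 14.0 and 14.5 under alkaline medium. The clear step was between untreated n-Sen and control medium (log2 fold change 0.61 ± 0.12, adjusted p = 0.00134, edgeR), which was called in all 10 alternatives. The media did not differ beyond the spread (0.025 ± 0.10, adjusted p = 0.914, edgeR). The rise from proliferating cells to n-Sen (0.37 ± 0.14, adjusted p = 0.0334, edgeR) did not pass without proliferating replicate 1 (0.25, adjusted p = 0.193), without n-Sen replicate 2 (0.28, adjusted p = 0.193) or in DESeq2 (adjusted p = 0.116).

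Slc30a4 (chromosome 2, 122681233 to 122702663) encodes a transporter that loads zinc into vesicles. It stood at 49.2 and 51.2 CPM in proliferating libraries and at 35.8 and 33.0 CPM in n-Sen, a log2 fold change of -0.55 ± 0.074 (adjusted p = 4.75e-06, edgeR). Control medium held 34.9 and 34.6 CPM, within the range of untreated n-Sen. Alkaline medium held 28.9 and 30.1 CPM, the lowest of the 4 groups. Against control medium this was -0.24 ± 0.073 (adjusted p = 0.0200, edgeR), which did not pass without control-medium replicate 1 (adjusted p = 0.0741) or 2 (0.0523) or alkaline replicate 1 (0.122), nor in DESeq2 (0.0791).

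Among the importer genes, Slc39a1, Slc39a8 and Slc39a14 were higher in n-Sen, and Slc39a6 and Slc39a10 were lower. Slc39a14 (chromosome 14, 70303469 to 70351425) encodes a carrier of zinc, manganese and iron not bound to transferrin. It stood at 59.7 and 57.4 CPM in proliferating libraries and at 90.6 and 89.9 CPM in n-Sen (log2 fold change 0.63 ± 0.060, adjusted p = 6.2e-08, edgeR). Control medium held 86.3 and 91.7 CPM, overlapping untreated n-Sen, and alkaline medium 106 and 115 CPM, above every other library (0.30 ± 0.055 against control medium, adjusted p = 0.000234, edgeR). Both calls held in all 10 alternatives of their comparison.

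Slc39a1 (chromosome 3, 90248172 to 90253612) encodes a broadly expressed importer of the plasma membrane. Its proliferating libraries stood at 121 and 120 CPM and its n-Sen libraries at 169 and 172 CPM (log2 fold change 0.50 ± 0.053, adjusted p = 1.7e-07, edgeR). Control medium held 159 and 170 CPM, and alkaline medium 153 and 155 CPM. Alkaline and control libraries did not overlap, and the difference of -0.10 ± 0.048 did not pass (adjusted p = 0.159, edgeR); it passed without control-medium replicate 1 (-0.15, adjusted p = 0.0410). Slc39a8 (chromosome 3, 135825279 to 135888572) encodes a carrier of zinc, manganese and cadmium and was the lowest of the 10 per kilobase in all 4 groups. It stood at 4.22 and 6.03 CPM in proliferating libraries, 6.45 and 8.35 in n-Sen, 8.31 and 7.50 under control medium, and 8.47 and 6.41 under alkaline medium. The n-Sen libraries were above the proliferating ones (0.53 ± 0.19, adjusted p = 0.0191, edgeR), and the 3 senescent groups overlapped each other. That call was lost without proliferating replicate 1 (0.30, adjusted p = 0.144), without n-Sen replicate 2 (0.32, adjusted p = 0.203) and in DESeq2 (adjusted p = 0.0655).

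Slc39a6 (chromosome 18, 24579881 to 24603817) and Slc39a10 (chromosome 1, 46807544 to 46892852) encode closely related importers that are known to form a complex with each other. Both were lower in n-Sen than in proliferating cells, but only Slc39a6 was higher in alkaline medium by the test. Slc39a6 stood at 191 and 194 CPM in proliferating libraries, 160 and 163 in n-Sen, 164 and 161 under control medium, and 195 and 193 under alkaline medium. The alkaline libraries thus overlapped the proliferating ones, and the control-medium libraries overlapped untreated n-Sen. The log2 fold change was -0.25 ± 0.051 for n-Sen against proliferating cells (adjusted p = 0.000351) and 0.25 ± 0.045 for alkaline against control medium (adjusted p = 0.000267, edgeR). Slc39a10, whose transcription MTF1 is known to repress, stood at 53.8 and 57.9 CPM in proliferating libraries, 39.5 and 36.3 in n-Sen, 39.0 and 36.2 under control medium, and 34.2 and 32.4 under alkaline medium. Its fall in n-Sen passed (-0.56 ± 0.074, adjusted p = 3.43e-06, edgeR). Its alkaline libraries lay below those of control medium without overlap, and the difference of -0.18 ± 0.073 did not pass (adjusted p = 0.0825, edgeR). Whether the alkaline differences of Slc39a6 and Slc39a10 differ from each other was not tested.

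Counted together, 7 of the 10 genes were higher and 3 lower in n-Sen than in proliferating cells, with a median log2 fold change of 0.41 against 0.0015 over all 19264 genes tested. In that comparison 67.1% of all genes passed, 34.0% higher and 33.1% lower, so a passing gene was the usual case, and the libraries did not overlap for 83.4% of all genes. For alkaline against control medium, 4 of 10 were higher (Mt1, Mt2, Slc39a6 and Slc39a14), 1 was lower (Slc30a4) and 5 did not pass, with a median of 0.011 against -0.0093 over 19129 genes. There 20.0% of all genes passed, 9.58% higher and 10.4% lower, and libraries did not overlap for 8 of the 10 genes against 56.7% of all. For control medium against untreated n-Sen, 2 of 10 were higher (Mt2 and Slc30a1) and 8 did not pass, while 11.1% of all 20215 genes passed, 6.18% higher and 4.96% lower. Libraries did not overlap for 4 of the 10 against 52.0% of all, and the median of the 10 was 0.053.

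**Figure D4:**
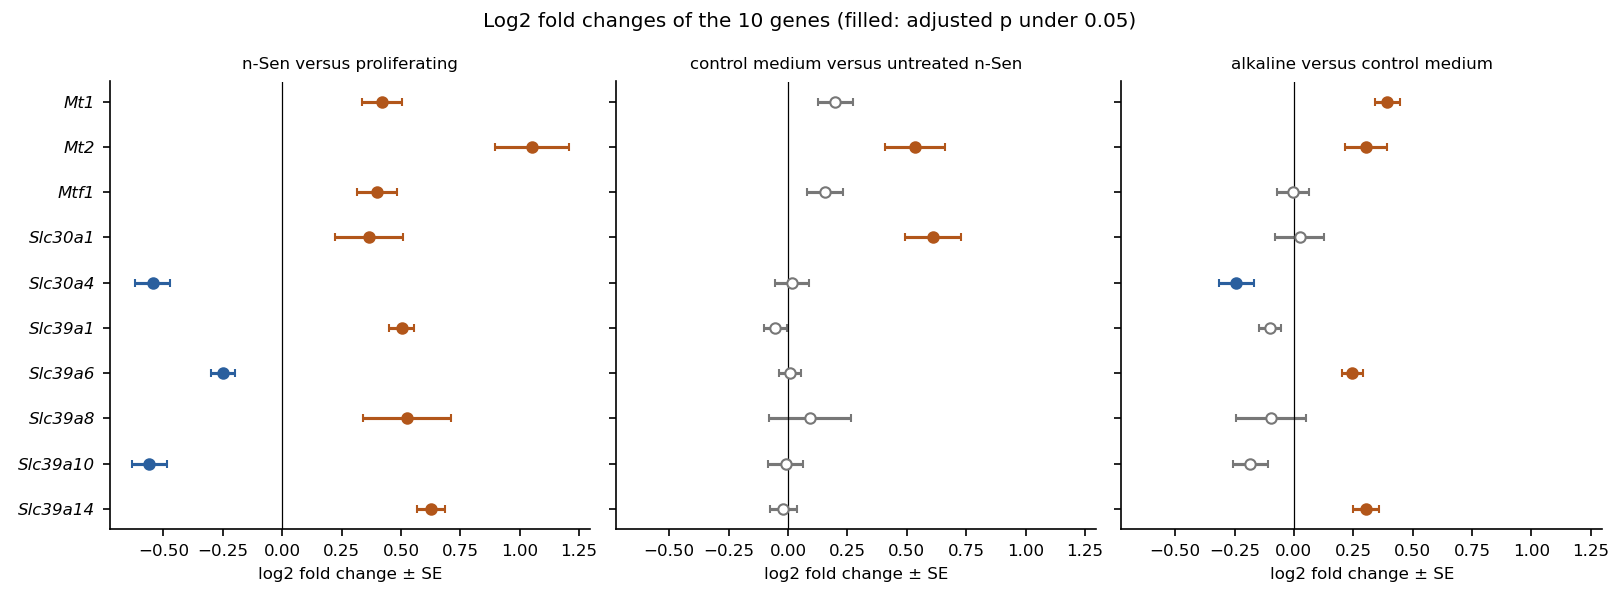
Log2 fold change ± SE (horizontal axes, the same scale in each panel) of the 10 genes in the 3 comparisons; filled points have an adjusted p under 0.05, orange for higher and blue for lower, and open points did not pass. All 10 passed for n-Sen against proliferating cells, 2 for control medium against untreated n-Sen and 5 for alkaline against control medium.

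Levels of different genes were compared per length, as CPM per kilobase of merged annotated exons. In proliferating cells Slc39a1 (50.9 ± 0.406 CPM per kb, SD, n = 2), Slc39a6 (47.2 ± 0.396) and Mt1 (37.2 ± 4.43) were the highest. In alkaline medium Mt1 was first at 75.1 ± 0.470 CPM per kb, before Slc39a1 at 65.1 ± 0.434 and Slc39a6 at 47.6 ± 0.450. Mt2 ranked 4 in all 4 groups as deposited. Summed with Gm45774 it stood at 82.7 ± 5.51 CPM per kb in alkaline medium, above Mt1. The first place of Mt1 there thus holds only with Mt2 as deposited. Merged exons of Mt1 span 1246 bases, while its main transcript has 549, so the level per kilobase of Mt1 depends on the length taken. Below these came Slc39a14, Slc39a10 and Slc30a4 (5.38 to 10.5 CPM per kb as group means), then Mtf1 (2.80 to 4.12), Slc30a1 (1.35 to 2.72) and Slc39a8 (0.669 to 1.03).

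Of the 12 other zinc transporter genes that could be tested, 8 were higher in n-Sen and 4 did not pass, beside 34.0% of all genes higher and 67.1% passing in either direction. Of 8 further SLC30 genes, 4 passed the filter on low counts, and of these Slc30a7 and Slc30a9 rose (log2 fold change 0.40 ± 0.065 and 0.60 ± 0.061), while the other two did not pass. Slc30a7 encodes a zinc carrier of the early secretory pathway. Of 9 further SLC39 genes, 8 passed the filter and 6 were called higher. Slc39a13, an importer gene of the Golgi and vesicles that is mutated in a connective tissue disorder, rose from 79.0 ± 5.37 to 133 ± 1.49 CPM (0.75 ± 0.060). Slc39a3 (0.65 ± 0.089), Slc39a11 (0.52 ± 0.088), Slc39a7 (0.46 ± 0.053) and Slc39a9 (0.42 ± 0.071) rose as well. Slc39a7, which releases zinc from the endoplasmic reticulum, reached 154 ± 1.84 CPM in n-Sen. Exons of Slc39a13 overlap Psmc3 on the opposite strand, those of Slc39a9 overlap Erh, and those of Slc30a7 overlap Gm43106 and Gm6649. On the same strand, exons of Slc39a7 overlap Gm20427 and those of Slc39a2 overlap Mettl17. The reads shared by these genes were not measured, so how far their levels are uncertain is not known. Slc39a4 was called higher from few counts, 0 and 4 in proliferating libraries and 12 and 16 in n-Sen (adjusted p = 0.0217, edgeR). It did not pass in DESeq2 (adjusted p = 0.139), with no filter on low counts (0.0565), or without proliferating replicate 1 (0.207), n-Sen replicate 1 (0.102) or n-Sen replicate 2 (0.150).

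In alkaline medium, 2 of 4 tested genes among these SLC30 genes and 3 of 8 among these SLC39 genes were higher, and the rest did not pass. Over all genes tested, 9.58% were higher there and 20.0% passed in either direction. Slc30a5, which encodes a carrier of the secretory pathway, stood at 70.0 and 70.5 CPM against 57.4 and 58.3 CPM in control medium (log2 fold change 0.27 ± 0.057, adjusted p = 0.00102, edgeR). Slc39a9 (0.21 ± 0.058), Slc39a13 (0.19 ± 0.050) and Slc30a7 (0.16 ± 0.054) were higher by less. Without control-medium replicate 1, Slc39a9 (adjusted p = 0.0526), Slc39a13 (0.102) and Slc30a7 (0.180) did not pass in edgeR's test. Slc39a9 also missed it without alkaline replicate 1 (0.119), and Slc30a7 missed it without alkaline replicate 1 (0.143), without alkaline replicate 2 (0.127) and in DESeq2 (0.0676). Slc39a2 had 30 and 51 counts against 8 and 10, a log2 fold change of 2.36 ± 0.56 (adjusted p = 0.00324, edgeR) at under 2 CPM, and did not pass without alkaline replicate 2 (adjusted p = 0.0937). With the set's own genes included, 9 of 13 tested SLC39 genes were higher and 2 lower in n-Sen, beside 34.0% and 33.1% of all genes. In alkaline medium 5 of 13 were higher, beside 9.58% of all genes. The metallothionein genes Mt3 and Mt4 had at most 6 counts in any library and were not tested.

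**Figure D5:**
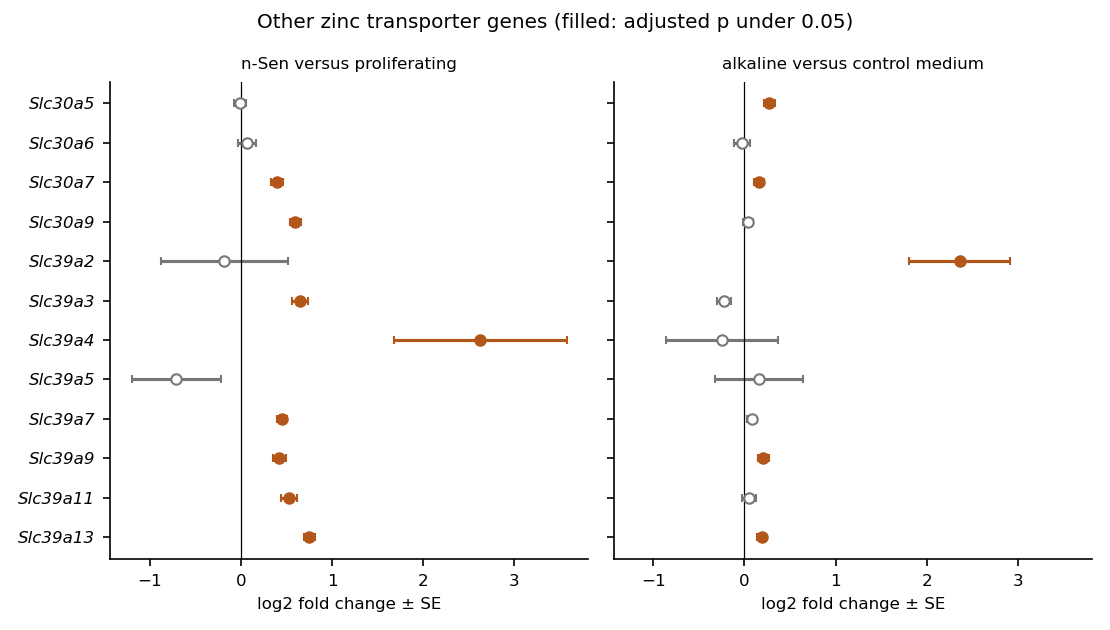
Log2 fold change ± SE (horizontal axes, the same scale in both panels) of the 12 tested SLC30 and SLC39 genes outside the set of 10, for n-Sen against proliferating cells and for alkaline against control medium; filled points have an adjusted p under 0.05. The filled points number 8 and 5 and all lie above 0; those of Slc39a4 and Slc39a2 rest on few counts and have wide errors.

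By profile over the 8 libraries, Mt1 was not the nearest gene to Mt2. Likeness was measured as the root mean square difference of centred log2(CPM + 1) values among 15227 genes, a description with no test, in which libraries share their groups. The measure also grows when genes change by different amounts, so Mt1 and Mt2 can lie apart though their groups stood in the same order. The 5 genes nearest to Mt1 were Gm10033 (0.0772), Mdfi (0.0789), Gp1bb (0.0797), Dach2 (0.0806) and Slc26a2 (0.0835), and Slc39a14 was the nearest member (0.139, rank 92). Nearest to Mt2 were its antisense neighbour Gm45774 (0.0061), which shares its counts, and Zmynd15 (0.121), Tgfb1 (0.126), Pqlc1 (0.136) and Tsku (0.136), with Mt1 at rank 639 (0.335). Nearest to Slc30a1 were Tpd52 (0.0874), Ell2 (0.0944), Il34 (0.104), Stk10 (0.106) and Clic4 (0.110), with Mt1 at rank 210 (0.192).

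Other genes of metal handling, and targets of factors also known to act on metallothionein promoters, are given by count. The shares over all genes were 34.0% called higher and 33.1% called lower for n-Sen against proliferating cells. They were 9.58% and 10.4% for alkaline against control medium, and 6.18% and 4.96% for control medium against untreated n-Sen. Of 11 tested copper handling genes, 4 were higher and 3 lower in n-Sen (median log2 fold change 0.14), with the copper chaperone genes Atox1 (0.93 ± 0.074) and Ccs (0.93 ± 0.088) and the vesicular transporter gene Slc31a2 (1.26 ± 0.13) among those higher. In alkaline medium 1 was higher and 1 lower (median 0.040). Of 7 genes of manganese, iron and cadmium transport, 2 were higher and 5 lower in n-Sen, and 1 was higher and 1 lower in alkaline medium. Of 10 targets of NRF2, the factor that binds antioxidant response elements, 2 were higher and 6 lower in n-Sen (median -0.32), 9 were higher in control medium than in untreated n-Sen (median 1.04), and 8 were lower in alkaline than in control medium (median -0.45). Mt1 and Mt2 were higher in the alkaline libraries, and whether NRF2 acts on them in these cells was not tested. Of 8 tested glucocorticoid target genes, 3 were higher and 5 lower in n-Sen (median -0.45), 4 were higher in control medium than in untreated n-Sen (median 0.29), and 2 were higher and 5 lower in alkaline medium (median -0.32). Macrophage markers, whose sum stood higher in n-Sen, were lower in alkaline medium in 11 of 19 cases and did not pass in 8 (median -0.29). Whether macrophages add to the levels of Mt1 and Mt2 was not tested.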

How the data were processed

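Polyadenylated RNA of mouse embryonic fibroblasts was sequenced from strand-marked (dUTP) libraries, per the labels' protocols. The submitters' processing notes name the mouse build mm10 and, with no roles, DESeq2 1.34.0, Subread 2.0.2 (with featureCounts), HISAT2 2.1.0 and fastp 0.23.2. The annotation release and the strand setting of the counting are not given in the sources used here. The authors deposited expected counts (estimated counts that need not be whole) in 2 tables of 54838 gene rows each, and 32.7% to 33.7% of each library's nonzero values were fractional. These were rounded for the tests. GENCODE vM21 (GRCm38, that is mm10) gave a symbol and position to 54809 of the IDs. Promoter windows came from RefSeq (GRCm38.p6).

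After filterByExpr and TMM scaling, edgeR 4.0.16 (R 4.3.3) ran its quasi-likelihood test, and p-values were adjusted by Benjamini-Hochberg over every gene tested, with calls at 0.05. Each main comparison (n-Sen with proliferating, alkaline with control medium) used a fit of its own 4 libraries. Control medium was compared with untreated n-Sen in a fit of all 8 libraries. Each SE is the size of the log2 fold change over the root of its F statistic. Printed CPM used TMM factors over all 8 libraries, so a ratio of printed means can differ slightly from the fitted fold change. DESeq2 1.42.0, RLE factors, no filter, other libraries in the fit, a replicate block and single libraries left out were tried as alternatives, and summing Mt2 with Gm45774 and leaving Cldn4 out of the epithelial sum were added after the data had been seen. The procedure was tested on simulated counts.

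Members and gene lists were chosen with earlier results of these data known. All 10 members are described in full. Of the other metallothionein, SLC30 and SLC39 genes, any called in either main comparison may be named, and of each other list at most the 3 of smallest p. The genes closest in profile to Mt1, Mt2 and Slc30a1 were the 5 with the smallest root mean square difference of centred log2(CPM + 1) over the 8 libraries, among genes with a mean of at least 1 CPM.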

Additional observations from a re-analysis of the deposited data

How the results depend on the processing

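For n-Sen against proliferating cells, the counts of the 10 genes called higher and lower stayed within 1.5 times those reported under all alternatives tried, as did the counts over all genes. For alkaline against control medium, the number of the 10 called lower was 0 in DESeq2 (1 at an unadjusted p under 0.05), against 1 in edgeR (3 at an unadjusted p under 0.05), and with single libraries left out it ran from 0 to 1. For control medium against untreated n-Sen, leaving out single libraries moved the number of the 10 called higher between 1 and 3, the number of all genes called higher between 731 and 816 (1250 with all libraries) and the number called lower between 450 and 569 (1003 with all libraries). The fit without a library has 1 sample left in a group, which is assumed to vary like the others. None of the genes recomputed here changed sign where either value was called. The scaling alternatives (TMM, RLE and DESeq2 size factors) moved the median of all genes by under 0.1 on the log2 scale.

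Replicate numbers did not pair the samples: deviations of same-numbered libraries had correlations of -0.0282, -0.00903 and -0.00317 over genes. With the replicate number as a block, 7 of the 10 were higher and 3 lower in n-Sen, 4 higher and 1 lower in alkaline medium and 2 higher in control medium, with 6455 and 6271, 2056 and 2254, and 1168 and 910 of all genes called higher and lower. Slc39a3 then passed as lower in alkaline medium (adjusted p = 0.0381), and with no block it missed the threshold (0.0513). The lowest genes, Slc39a2 and Slc39a4, have at most 51 counts in any library, which limits what can be said of them.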
